A study of Mus musculus with 20 samples.

Results

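Narrow open chromatin regions found in every lymph node DNase library of the study are described here. DNase-enriched islands of 8 libraries were merged into 25755 regions, with touching 200-bp bins joined. A region was kept when each of the 8 libraries had an island in it and its merged length was below 8000 bp. These conditions held for 9985 regions, which are 38.8% of all merged regions and 94.2% of the 10598 regions shared by all 8 libraries. The other 613 shared regions were 8000 bp or longer, with a median merged length of 9800 bp, and 15157 regions had an island in 1 to 7 libraries. The members were chosen by measured values, presence in a library and merged length, so both are given only as a description.

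The libraries came from antigen-specific CD4 T cells of the draining lymph nodes, taken on day 16 after immunisation with AS15/CFA and identified by tetramer staining. All mice were of C57BL/6 background and carried T-bet-Cre together with a Rosa26-loxP-STOP-loxP-tdTomato reporter. The Cre is driven by T-bet, a transcription factor of type 1 helper T cells, so a Tomato+ cell expresses T-bet now or did so earlier, and the reporter does not separate these states. The 4 sorted groups, each with 2 libraries, were Tfh Tomato+, Tfh Tomato-, non-Tfh Tomato+ and non-Tfh Tomato-. Tfh cells, which help B cells in germinal centres, were sorted as CXCR5high PD1high and non-Tfh cells as CXCR5low PD1low. Nothing in the labels says that the 2 libraries of a group came from separate mice, so each p-value measures only the spread between these libraries, which may be technical.

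DNase I cuts DNA where nucleosomes are missing or loose, as at active promoters, enhancers and insulators. Regions open in every sample of a tissue are often promoters of widely used genes and binding sites of the insulator factor CTCF, whereas sites open in some samples are more often enhancers. Which genes or sequences lie at these regions was not analysed here.

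The sort could be read from separate RNA-seq libraries of the same 4 groups, in authors' RPKM, by 9 marker genes. Cxcr5, the follicle-homing receptor, stood at 258 to 394 RPKM in Tfh and 27.8 to 113 in non-Tfh libraries. Pdcd1, which encodes PD1, stood at 542 to 715 RPKM in Tfh and 89.9 to 183 in non-Tfh libraries, and Bcl6, the Tfh lineage factor, at 95.2 to 139 RPKM in Tfh and 21.1 to 31.6 in non-Tfh libraries. Tbx21, which encodes T-bet, stood at 53.0 to 183 RPKM in Tomato+ and 10.4 to 12.9 in Tomato- libraries. The T cell genes were high in all 8 RNA libraries, Cd3e at 197 to 300.3 RPKM and Cd4 at 340 to 444 RPKM. The B cell gene Cd79a stood at 28.4 to 61.8 RPKM throughout. The macrophage gene Lyz2 stood at 63.9 to 244 RPKM in Tomato+ and 666 to 948 in Tomato- libraries. The neutrophil gene S100a8 stood at 0.658 to 68.3 RPKM in Tomato+ libraries and 0.945 to 299.9 in Tomato- libraries, where replicate 2 of both populations was high. Lyz2 and S100a8 thus moved with the Tomato sort or with single libraries. No other-cell gene was at 0, and their part in the DNase results below was not tested.

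The islands of a narrow shared region mostly had a stretch in common. Islands were merged where they touched or overlapped, so some overlap was built in. Merged length ran from 400 to 7800 bp, with a median of 3800 bp and quartiles of 3000 and 4800 bp. In 9944 members (99.6%) some bases were covered in all 8 libraries, and this common core had a median length of 1000 bp, with quartiles of 800 and 1400 bp. The core took up a median of 29.4% of the merged length. Island centres of one member differed between libraries by a median SD of 314 bp. Exactly 1 island in each library was found in 8764 members (87.8%). In 451 members the core came in 2 or more pieces, and 23 members held 2 or more islands in every library. The 41 members without a core were joined only through islands that touched or overlapped in some libraries. The length limit fell on a smooth tail of the length distribution. The 45 members of 7800 bp, such as chr1:58767201-58775000, chr1:82826601-82834400 and chr1:107885001-107892800, had mean score ranks with a median of 71.4% and covered widths with a median of 4425 bp. The 52 shared regions of 8000 bp just outside, such as chr1:54978201-54986200, chr1:71143801-71151800 and chr1:85081001-85089000, had 69.0% and 4150 bp.

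**Figure D1:**
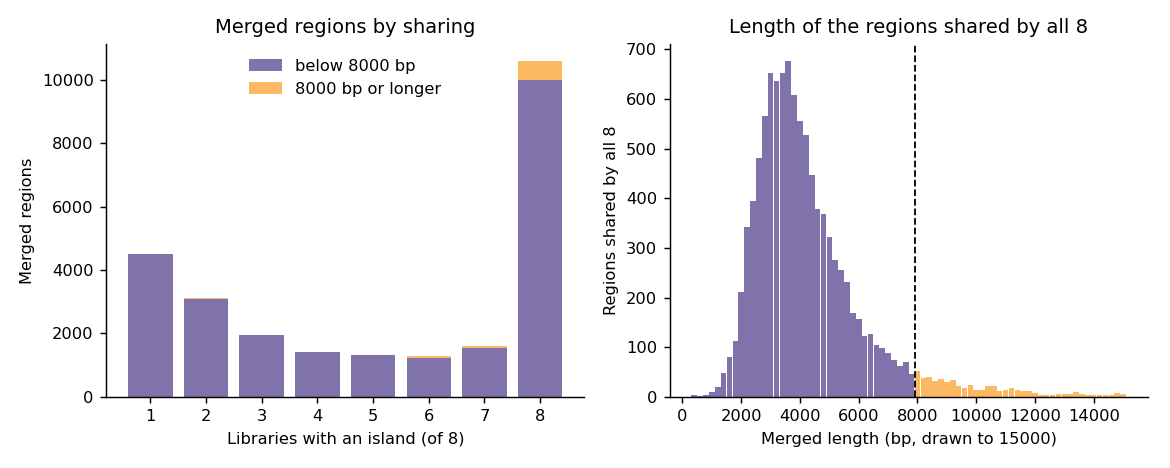
Left, number of merged regions by the number of libraries with an island, split at 8000 bp (stacked bars). Right, number of regions shared by all 8 libraries by merged length in bp, with the 8000-bp limit as a dashed line. Regions in all 8 libraries (10598) outnumber those in any smaller number of libraries, the next being 4501 regions in 1 library, and 9985 of them lie left of the limit.

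Although they were a minority of the merged regions, the members held most of the strong islands. They took 50.9% to 72.0% of a library's islands, 54.9% to 67% of its covered bases and 70.6% to 79.6% of its summed island score. The island score is the authors' own value for the enrichment of an island. Of the 10% of islands with the highest scores in each library, 86.9% to 89.7% lay in members, and of the 10% with the lowest 7.57% to 26.5%. The median island in a member lay between the 60.1st and 70.3rd percentile of its library's scores. For islands in the 613 broad shared regions the library medians were percentiles of 61.0 to 67.7, for regions in 7 libraries 21.6 to 38.1, for those in 2 to 6 libraries 14.3 to 26.6, and for those in 1 library 6.86 to 11.8. A stronger island is more readily called in every library, so sharing and score are not independent here.

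The libraries differed in how many islands they held and how wide these were. Tfh Tomato+ had 14084 and 15374 islands, Tfh Tomato- 18742 and 17531, non-Tfh Tomato+ 20460 and 21222, and non-Tfh Tomato- 18061 and 14980. The bases covered ranged only from 32.9 to 42.2 Mb, and the 3 libraries with the fewest islands had the widest ones. The median island was 2400 bp long in both Tfh Tomato+ libraries, 2200 bp in non-Tfh Tomato- replicate 2 and 1400 bp in non-Tfh Tomato+ replicate 2. The files give no read numbers, so the depth behind these values is unknown.

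The members followed this pattern of widths. The median member was covered by islands over 2400 bp in both Tfh Tomato+ libraries and over 2200 and 2000 bp in Tfh Tomato-, against 2000 and 1600 bp in non-Tfh Tomato+ and 2000 and 2200 bp in non-Tfh Tomato-. The Tfh Tomato+ libraries thus had the widest members and non-Tfh Tomato+ replicate 2 the narrowest, and the Tfh and non-Tfh values overlapped. Members were split into 2 or more islands in 1.56% and 2.16% of cases in Tfh Tomato+ and 3.72% and 3.78% in Tfh Tomato-, against 5.87% and 7.83% in non-Tfh Tomato+ and 4.63% and 2.49% in non-Tfh Tomato-. Splitting was rarest in the 3 libraries with the widest members on average and most frequent in the narrowest, non-Tfh Tomato+ replicate 2.

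**Figure D2:**
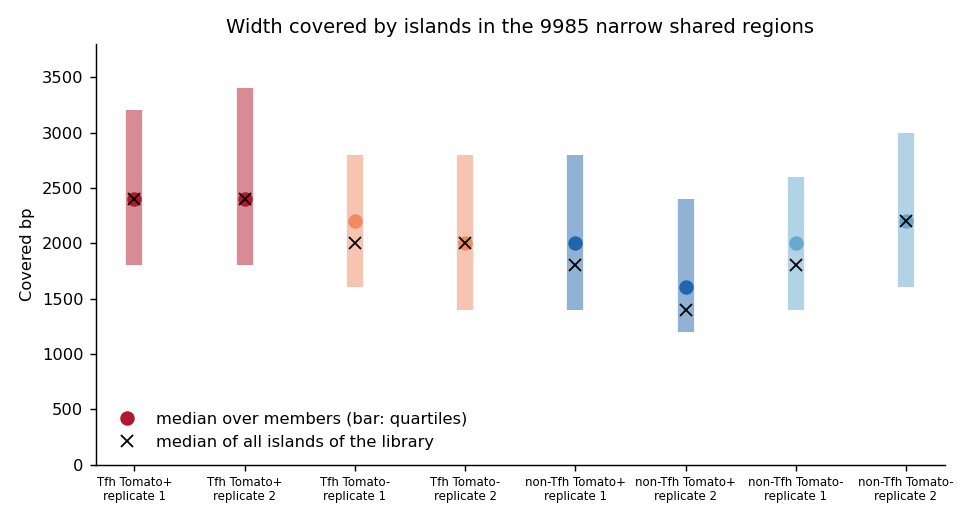
Bases covered by islands in the 9985 narrow shared regions in each of the 8 libraries, in bp; filled points are medians over members, bars the quartiles, and crosses the median of all islands of the library. The medians of members run from 1600 bp in non-Tfh Tomato+ replicate 2 to 2400 bp in both Tfh Tomato+ libraries, and lie within 200 bp of the median of all islands in each library.

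Over libraries, the median width averaged 2250 ± 191 bp in Tfh and 1950 ± 252 bp in non-Tfh (SD, n = 4 each), a difference of 300.0 bp. The groups overlapped, and the difference did not pass a two-sided exact permutation test over 70 arrangements of the libraries (p = 0.2). It averaged 2100 ± 383 bp in Tomato+ and 2100 ± 115 bp in Tomato- libraries (p = 1.0 in the same exact test). Between 4 and 4 libraries this test can reach 0.0286, and between 2 and 2 only 0.33. Region by region, 7092 members were wider and 2875 narrower in Tfh than in non-Tfh on the log2 scale, with a median log2 difference of 0.19. By limma with Benjamini-Hochberg adjustment over the 10598 shared regions, no member (0) changed in width in any of the 7 contrasts tested. At an unadjusted limma p below 0.05 there were 956 members between Tfh and non-Tfh, which is 9.57% against 9.70% of all shared regions. Between Tomato+ and Tomato- there were 531, which is 5.32% against 5.44%. For Tomato there were 613 within Tfh (6.14%, against 6.15%) and 681 within non-Tfh (6.82%, against 6.79%). For the populations there were 1252 within Tomato+ cells (12.5% of members and of all shared regions) and 470 within Tomato- cells (4.71%, against 4.70%). The interaction had 779 (7.80%, against 7.67%). The members thus stood near the share of all shared regions in each contrast. Shifts of width between libraries as a whole are part of these values.

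Because a score depends on its library, each region was placed by the rank of its summed island score among the 10598 shared regions of the same library, in percent, where 100 is the highest score. Ranks were well kept between libraries. Spearman correlations of score over the 9985 members, whose values share the same list of regions, were 0.860 to 0.923 for the 4 pairs of libraries within a group and 0.819 to 0.875 for the 8 pairs of the same population with different Tomato status. They were 0.777 to 0.863 for the 8 pairs of the same Tomato status from different populations and 0.692 to 0.855 for the 8 pairs that differed in both. Covered width was less well kept, at 0.457 to 0.576 within groups and 0.434 to 0.536 where both differed.

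A member's rank moved by a median of 27.8 points between its lowest and highest library, with quartiles of 18.3 and 37.8. There were 439 members in the top 10% of ranks in all 8 libraries and 37 in the bottom 10% in all 8. Only 223 members (2.23%) were in the top 25% in one library and the bottom 25% in another. Rank range was smallest among the highest members. With members split by mean rank into 4 bins of like size, the median range from the lowest to the highest bin was 28.1, 37.5, 30.2 and 13.4 points. From the lowest to the highest bin the median merged length was 3400, 3600, 3800 and 4200 bp, and the median core 800, 1000, 1200 and 1400 bp. Over the 9985 members mean rank had a Spearman correlation of 0.42 with core length, 0.35 with mean covered width, 0.22 with merged length and 0.02 with the distance to the nearest other member. The score of a region adds up over its covered bins, so a link with length is built into it.

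A handful of members stood far above the rest. The region chr17:39979201-39985800 had the highest score of all members in every library, between 25333 and 27342, and covered 6000 to 6600 bp. In chr2:98506201-98507600 scores ran from 4854 to 5502, and in the neighbouring chr2:98502201-98503200 from 3382 to 3498. Both were covered over their whole length in every library, 1400 bp in the one and 1000 bp in the other. The region chr9:35112401-35115000 scored 2065 to 2104 although its covered width ran from 600 to 2400 bp. Scores so even are unusual among the members. The coefficient of variation of the score over the 8 libraries was 2.61%, 4.81%, 1.15% and 0.661% in these 4 regions, against a median of 22.8% and quartiles of 18.4% and 28.9% over all members. Only 7 members had a value below 5%, and 5 of those also scored above 1000 in all 8 libraries. In all, 8 members scored above 1000 in every library. The score per 200-bp bin reached 911 in the chromosome 17 region, against a median of 14.2 for members. Not every top member was so even: the Y region chrY:2779601-2786400, the 4th by mean rank, had a coefficient of variation of 28.0%. Whether repeated or collapsed sequence of mm9 lies at these regions was not tested, so their scores cannot be read as open chromatin alone.

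At the other end, chr4:115403801-115406000 had the lowest mean rank, 1.14%. It was followed by chr19:46539401-46543200 at 1.69%, chr10:5732401-5736000 at 2.24%, chr9:71958001-71961200 at 2.45% and chr1:172830601-172833600 at 2.46%. Each of these weak regions nonetheless had an island in all 8 libraries. The member with the widest range of rank, 92.8 points, was chr2:13478401-13482400. It ranked at 4.71% and 42.7% in Tfh Tomato+ and 1.47% and 20.2% in Tfh Tomato-, against 89.1% and 94.3% in non-Tfh Tomato+ and 71.8% and 39.4% in non-Tfh Tomato-. Its non-Tfh Tomato+ libraries were the highest, and the Tfh and non-Tfh libraries overlapped. The next widest ranges, 91.7 and 88.2 points, were those of chr7:87560801-87563600 and chr4:144807601-144813800, and both had their highest ranks in non-Tfh Tomato+ libraries.

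The comparison of Tfh with non-Tfh cells asks which of the commonly open regions differ in strength between the populations. Ranks were turned into normal scores (the standard normal value at that rank) and tested by limma over all 10598 shared regions with Benjamini-Hochberg adjustment. Averaged over Tomato status, 185 of the 9985 members changed, 54 higher and 131 lower in Tfh, at an adjusted p below 0.05. Over all shared regions 193, or 1.82%, were called, with 0.557% higher and 1.26% lower, so the members' share of 1.85% was close to that of the shared regions at large. Among the 613 broad regions 8 were called, 1.31%. Tfh and non-Tfh libraries did not overlap in rank in 960 members, which is 9.61% of them, near the 9.7% of all shared regions.

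The 54 members higher in Tfh had low ranks in non-Tfh cells. Their median group ranks were 40.4% in Tfh Tomato+ and 46.9% in Tfh Tomato-, against 3.34% in non-Tfh Tomato+ and 9.47% in non-Tfh Tomato-. The median difference was 1.18 in normal score. Of these members 49 had Tfh and non-Tfh libraries that did not overlap. By direction alone of the mean covered width, 53 of the 54 were wider in Tfh, against 6879 of all 9985 members, and width enters the score because scores add up over covered bins. The 131 members lower in Tfh had median group ranks of 20.5% in Tfh Tomato+ and 8.56% in Tfh Tomato-, against 65.1% in non-Tfh Tomato+ and 44.8% in non-Tfh Tomato-, with a median difference of -1.20. Of these, 103 did not overlap, 81 were narrower in Tfh and 48 wider. All 185 kept the direction of the average within Tomato+ and within Tomato- cells. They were called on that average from the same ranks, so this and the lack of overlap follow largely from the choice. In the 4 bins of mean rank, from lowest to highest, there were 58, 78, 38 and 11 called members. This mean runs over the same ranks that made the calls. A member low in 1 population has a lowered mean rank even where it ranks high in the other. The bins thus do not show that called members are weak, and the share of all shared regions per bin was not computed. Another member called the same way lay within 100 kb of 2 of the 54 and 14 of the 131. The like share for randomly picked members was not computed. No called member lay on the X chromosome, which held only 158 of the 9985 members.

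**Figure D3:**
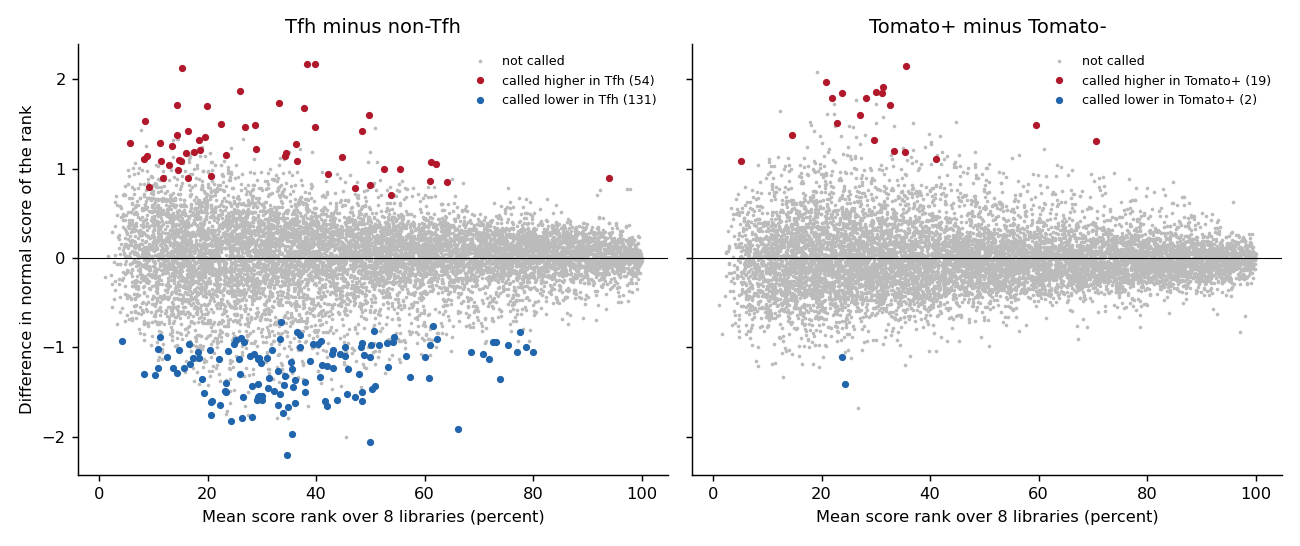
Difference in the normal score of the rank (vertical axis) against mean score rank over the 8 libraries in percent (horizontal axis) for the 9985 members, Tfh minus non-Tfh on the left and Tomato+ minus Tomato- on the right. Grey points were not called by limma, red points were called higher and blue points lower: 54 and 131 on the left, 19 and 2 on the right, with few of them in the top 25% of mean ranks.

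The regions with the smallest p among those higher in Tfh are given as A to E. Region A, chr11:116953001-116956800, ranked at 69.8% and 71.9% in Tfh Tomato+ and 69.2% and 71.3% in Tfh Tomato-, against 2.25% and 3.59% in non-Tfh Tomato+ and 13.0% and 5.43% in non-Tfh Tomato-. All 4 Tfh libraries were high and even, and no non-Tfh library came near them. The difference was 2.2 ± 0.16 in normal score (SE, adjusted p = 0.0107 by limma). Its covered width ran from 2200 to 3600 bp in Tfh and from 600 to 2000 bp in non-Tfh libraries. Region B, chr11:80300401-80305600, ranked at 50.4% and 27.3% in Tfh Tomato+ and 55.7% in both Tfh Tomato- libraries, against 0.698% and 0.481% in non-Tfh Tomato+ and 7.85% and 9.10% in non-Tfh Tomato-. The non-Tfh Tomato+ libraries were the lowest, and the populations did not overlap. Region C, chr12:103545401-103549400, ranked at 58.0% and 60.2% in Tfh Tomato+ and 64.8% and 74.7% in Tfh Tomato-, against 5.62% and 4.81% in non-Tfh Tomato+ and 10.6% and 23.3% in non-Tfh Tomato-. Here too the populations stood apart, with non-Tfh Tomato- replicate 2 the nearest. Region D, chr14:78845201-78849200, ranked at 23.4% and 38.3% in Tfh Tomato+ and 49.1% and 52.1% in Tfh Tomato-, against 3.26% and 2.59% in non-Tfh Tomato+ and 6.61% and 4.60% in non-Tfh Tomato-. Its non-Tfh libraries lay close together at the bottom. Region E, chr12:111617601-111622000, ranked at 61.1% and 63.2% in Tfh Tomato+ and 59.1% and 69.3% in Tfh Tomato-, against 3.81% and 6.36% in non-Tfh Tomato+ and 20.3% and 35.4% in non-Tfh Tomato-. Its non-Tfh Tomato- libraries lay between the other groups. The differences in B to E were 1.87 ± 0.17, 1.68 ± 0.17, 1.5 ± 0.15 and 1.46 ± 0.17 in normal score (SE), each with an adjusted p of 0.0191 by limma.

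Regions F to J had the smallest p among those lower in Tfh. Region F, chr10:80967801-80974800, ranked at 42.3% and 47.0% in Tfh Tomato+ and 20.8% and 47.1% in Tfh Tomato-, against 98.1% in both non-Tfh Tomato+ libraries and 86.1% and 89.6% in non-Tfh Tomato-. It was among the strongest members in non-Tfh Tomato+ cells. Its scores, which depend on the library, were 296 to 796 in non-Tfh and 95.5 to 135 in Tfh libraries. Region G, chr12:8525801-8530000, ranked at 39.1% and 48.7% in Tfh Tomato+ and 7.83% and 8.36% in Tfh Tomato-, against 76.1% and 78.5% in non-Tfh Tomato+ and 61.4% and 62.6% in non-Tfh Tomato-. Within each population its Tomato+ libraries were the higher, and the populations did not overlap. Region H, chr11:74367401-74370800, ranked at 3.86% and 2.01% in Tfh Tomato+ and 3.38% and 2.46% in Tfh Tomato-, against 46.8% and 49.5% in non-Tfh Tomato+ and 29.1% and 17.1% in non-Tfh Tomato-. It was near the bottom in every Tfh library. Region I, chr3:36752601-36754000, ranked at 1.83% and 7.33% in Tfh Tomato+ and 13.2% and 9.78% in Tfh Tomato-, against 48.2% and 59.4% in non-Tfh Tomato+ and 63.4% and 67.6% in non-Tfh Tomato-. It was the shortest of the lettered regions, at 1400 bp, and was covered over 600 to 1000 bp in Tfh and 1000 to 1200 bp in non-Tfh libraries. Region J, chr8:13684201-13689200, ranked at 61.5% and 48.8% in Tfh Tomato+ and 19% and 21.7% in Tfh Tomato-, against 84.9% and 87.0% in non-Tfh Tomato+ and 84.8% and 78.9% in non-Tfh Tomato-. Its Tfh Tomato- libraries were the lowest. The differences in F to J were -1.91 ± 0.19, -1.30 ± 0.14, -1.51 ± 0.16, -1.74 ± 0.18 and -1.35 ± 0.15 in normal score (SE), each with an adjusted p of 0.0191 by limma.

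The number of calls changed with the score used and with the libraries kept. With the score divided by covered width, 0 members were called. Leaving out any 1 non-Tfh library took away all or nearly all calls. Without replicate 1 of Tfh Tomato+ or of Tfh Tomato- the number fell sharply, and without replicate 2 of either it did not fall. Each of these fits leaves 1 library in a group. All 185 kept their sign when any single library was left out. They had been called for large differences in these same libraries, so a kept sign was largely built in. Without 1 non-Tfh library region A stood at 2.06 to 2.30, B at 1.84 to 1.91 and F at -1.96 to -1.87 in normal score. Within Tomato+ cells alone and within Tomato- cells alone, limma called 0 members between Tfh and non-Tfh, with 1396 and 1135 at an unadjusted p below 0.05. These are 14.0% and 11.4% of members, against 14.3% and 11.4% of all shared regions. When the score was centred as a log2 value instead of ranked, 674 members were called, 286 higher and 388 lower in Tfh. Here and in the alternatives below, counts are of members only, and the share over all shared regions is not given.

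**Figure D4:**
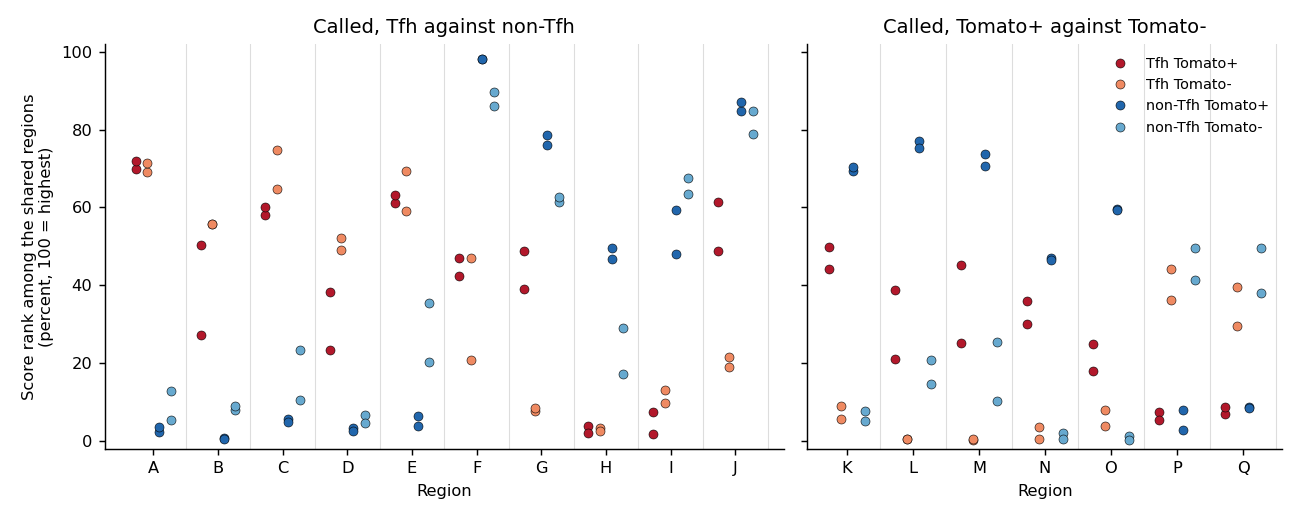
Score rank in percent (100 is the highest score of a shared region) of regions A to J, called between Tfh and non-Tfh (left), and K to Q, called between Tomato+ and Tomato- (right); each point is 1 library, coloured by group. In A to E all Tfh points lie above all non-Tfh points, in F to J below them; in K to O the Tomato+ points lie above the Tomato- points of the same population, and in P and Q below.

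The Tomato comparison asks whether strength at these regions differs with present or past T-bet expression. Averaged over the populations, 21 members changed, 19 higher and 2 lower in Tomato+ cells (limma, adjusted p below 0.05). Over all shared regions 23, or 0.217%, were called, with 0.198% higher and 0.0189% lower, and 2 of them were broad. Tomato+ and Tomato- libraries did not overlap in 505 members, 5.06%, near the 5.29% of all shared regions. The 19 members higher in Tomato+ cells had median group ranks of 33.0% in Tfh Tomato+ against 2.66% in Tfh Tomato-, and 66.5% in non-Tfh Tomato+ against 10.5% in non-Tfh Tomato-. The median difference was 1.60 in normal score. All 19 were higher in Tomato+ cells within each population, which follows largely from calling them on the average. By direction alone, 16 of the 19 were also wider in Tomato+ cells, against 5114 of all 9985 members. Without any 1 library 0 to 3 members were called in this averaged comparison, and with the score per covered base 0. With the score centred as a log2 value, 166 members were called, 125 higher and 41 lower in Tomato+ cells.

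Regions K to O had the smallest p among those higher in Tomato+ cells. Region K, chr15:78421201-78423400, ranked at 49.9% and 44.1% in Tfh Tomato+ against 5.77% and 9.01% in Tfh Tomato-, and at 69.4% and 70.4% in non-Tfh Tomato+ against 7.61% and 5.22% in non-Tfh Tomato-. The Tomato- libraries of both populations lay together below 10%. Region L, chr4:32213201-32215800, ranked at 38.7% and 21.2% in Tfh Tomato+ against 0.632% and 0.387% in Tfh Tomato-, and at 77.0% and 75.3% in non-Tfh Tomato+ against 14.6% and 20.7% in non-Tfh Tomato-. Tfh Tomato+ replicate 2 lay just above the highest Tomato- library. Region M, chr11:107318401-107321800, ranked at 45.2% and 25.1% in Tfh Tomato+ against 0.311% and 0.481% in Tfh Tomato-, and at 73.7% and 70.8% in non-Tfh Tomato+ against 10.4% and 25.3% in non-Tfh Tomato-. Its Tomato+ and Tomato- libraries overlapped by a small margin. Region N, chr14:26345201-26348400, ranked at 30.0% and 36.0% in Tfh Tomato+ against 3.6% and 0.623% in Tfh Tomato-, and at 47.1% and 46.6% in non-Tfh Tomato+ against 1.97% and 0.510% in non-Tfh Tomato-. All 4 Tomato- libraries were near the bottom. Region O, chr19:53874401-53876800, ranked at 25% and 18.1% in Tfh Tomato+ against 3.75% and 8.07% in Tfh Tomato-, and at 59.7% and 59.4% in non-Tfh Tomato+ against 1.26% and 0.217% in non-Tfh Tomato-. It had its widest spread between the non-Tfh groups. The differences in K to O were 1.72 ± 0.14, 1.84 ± 0.17, 1.91 ± 0.20, 1.97 ± 0.20 and 1.79 ± 0.19 in normal score (SE). The adjusted p by limma was 0.0261 in K and L and 0.0302 in M, N and O.

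The members lower in Tomato+ cells were P and Q. Region P, chr9:45219201-45226200, ranked at 7.54% and 5.36% in Tfh Tomato+ against 44.2% and 36.3% in Tfh Tomato-, and at 7.97% and 2.75% in non-Tfh Tomato+ against 41.5% and 49.7% in non-Tfh Tomato-. The ranks of Tfh and non-Tfh libraries overlapped within each Tomato status, and no base of it was covered in all 8 libraries. Region Q, chr4:65264801-65268400, ranked at 6.85% and 8.80% in Tfh Tomato+ against 29.5% and 39.5% in Tfh Tomato-, and at 8.78% and 8.49% in non-Tfh Tomato+ against 49.5% and 38.1% in non-Tfh Tomato-. Its 4 Tomato+ libraries lay within a few points of each other. The differences were -1.41 ± 0.17 in P and -1.11 ± 0.15 in Q (SE), with adjusted p of 0.0396 and 0.0467 by limma. With the score of the largest island in place of the sum, P stood at -0.58 and was not called (adjusted p = 0.346 by limma).

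Within non-Tfh cells, limma called 2 members between Tomato+ and Tomato-, both higher, and these were 0.0189% of all shared regions. They were O, with a difference of 2.79 ± 0.27, and K, with 2.05 ± 0.20 in normal score (SE), each with an adjusted p of 0.0465. Neither was called without any 1 of the 8 libraries (adjusted p of 0.0994 to 0.392 by limma), although O stayed at 2.48 to 3.10 and K at 1.95 to 2.15. With centred log2 scores 229 members were called within non-Tfh cells, 115 higher and 114 lower. Within Tfh cells limma called 0 members, with 762 at an unadjusted p below 0.05 (7.63%, against 7.62% of all shared regions). Within non-Tfh cells there were 1130 (11.3%, against 11.8%). The test of the difference between these Tomato effects, the interaction, called 0 members, with 578 at an unadjusted p below 0.05 (5.79%, against 5.75%), so no member was shown to differ between the populations in its Tomato effect.

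Along the genome the members lay a median of 59.0 kb from the next, with quartiles of 21.4 and 164 kb. Another member lay within 5 kb of 1386 members (13.9%) and within 100 kb of 8316 (83.3%), while 65 were over 1 Mb from any other. Chromosome 11 was the densest, at 6.67 members per Mb between its first and last merged region, followed by chromosome 19 at 5.91 and chromosome 17 at 5.29. Chromosome 18 had the lowest density of the autosomes, at 3.05 members per Mb, nearly tied with chromosome 1 at 3.06. Members made up 34.2% of the merged regions on chromosome 1, 40.4% on chromosome 11 and 43.1% on chromosome 19, against 38.8% over the autosomes. The dense chromosome 11 was thus near the autosomal share.

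The X chromosome stood apart from the autosomes. It held 158 members, 0.976 per Mb, with a median merged length of 2600 bp. Its median rank was 38.3% and 29.6% in Tfh Tomato+, 27.8% and 33.4% in Tfh Tomato-, 40.7% and 44.1% in non-Tfh Tomato+, and 36.9% and 33.6% in non-Tfh Tomato-. Every library was below the median of the autosomal members, which lay between 48.1% and 48.5%. X had 441 merged regions in all, and 35.8% of them were members, against 38.8% on the autosomes. Among the autosomes the library medians were highest on chromosome 7, at 54.2% to 56.0%, and lower on chromosome 2, at 42.8% to 45.1%. Only 3 members lay on Y. The largest, chrY:2779601-2786400, covered 6600 to 6800 bp and scored 1449 and 3907 in Tfh Tomato+ and 3196 and 4687 in Tfh Tomato-, against 3000.2 and 3285 in non-Tfh Tomato+ and 3972 and 3578 in non-Tfh Tomato-. Its lowest score was in Tfh Tomato+ replicate 1, and the coefficient of variation was 28.0%.

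**Figure D5:**
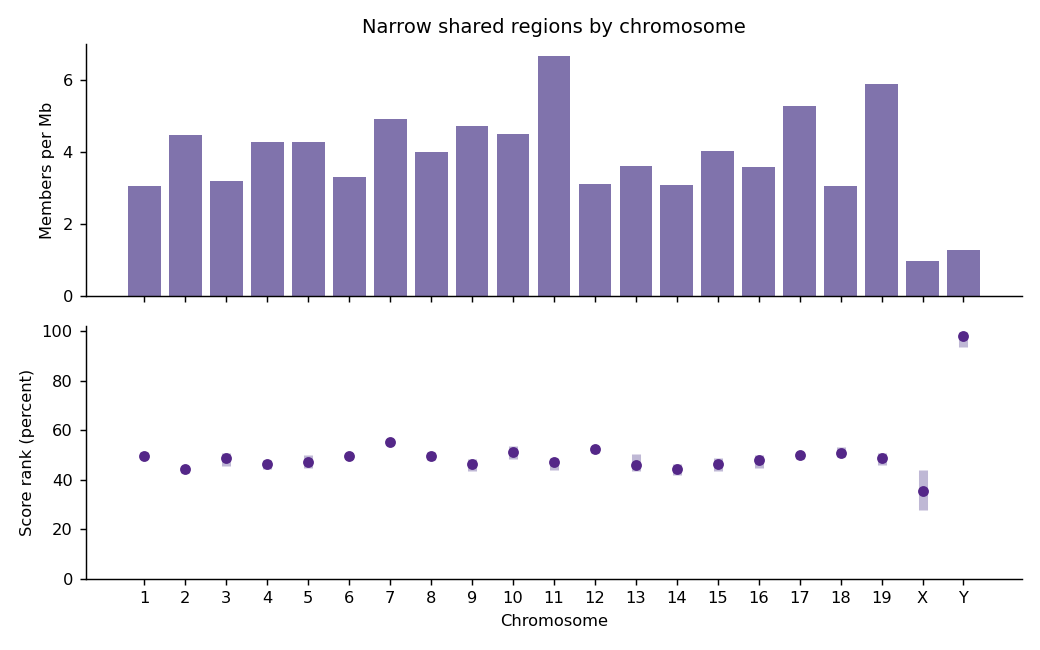
Members per Mb (top) and their score rank in percent (bottom) by chromosome; in the lower panel the point is the mean of the 8 library medians and the bar runs from the lowest to the highest of them. X has the lowest density, 0.976 per Mb, and the lowest mean rank, 35.6%. The Y point stands for only 3 members. Of these, chrY:2777401-2777800 ranked at 6.22% to 64.7%, and the others at 93.7% or higher in every library.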

How the data were processed

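Cells were profiled by scDNase-seq, a DNase-seq protocol for few cells, in 8 lymph node libraries, with RNA-seq of the same groups in 8 further libraries. Reads were handled with CASAVA 2.18, Bowtie2, SICER 1.1 and edgeR on mm9, per the submitters' processing notes, which give no roles for them. The deposited DNase files list islands with a score that the authors computed. Their names carry the settings of the caller: no duplicates, windows of 200 bp, gaps up to 400 bp, E-value 1. RNA values are the authors' deposited RPKM and served only to check the sort. Spleen libraries were not used. The 2 libraries of a group had only 398 to 1322 islands with the same start and end, so neither was a copy and each was counted once. Islands with other ends can still lie at the same site. Islands were merged in Python 3.11.15. Island scores were summed per region and library, ranked over the 10598 regions shared by all 8, and converted to normal scores. These and log2 covered width were fitted in limma 3.58.1 (R 4.3.3) with 1 mean per group, and p-values were adjusted by Benjamini-Hochberg over all shared regions. No low-value filter was used. The fit was also run on simulated data with independent normal noise of the same SD in every region. That noise lacks differences in spread between regions, so the run says nothing of how firm the calls here are. Deviations of same-numbered libraries correlated at r from -0.11 to 0.18 over 6 group pairs, with 2 pairs over 0.1 and not all, so no pairing was used. Regions named were those of smallest p in each direction (at most 5), the extremes of mean rank and of rank range, and those beside the length limit, leaving out chromosome 18. Alternatives changed the score summary, the scaling, the list ranked over, the length limit, the joining of islands, the variance model and the libraries. Members and lists were chosen with earlier results of these data known. The reference at hand was of another build than mm9, so no gene or sequence was placed.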

Additional observations from a re-analysis of the deposited data

How the results depend on the processing

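The number of members called by score rank depended on the processing, and the cause was not tested. Counts under the alternatives are of members only, without the share over all shared regions. They do not compare the members with the other shared regions. Between Tfh and non-Tfh, the 185 calls became 0 with score per covered base, 674 with centred log2 scores and 500 with a mean-variance trend, and leaving out 1 library gave 0 to 192. All 185 kept their sign in every alternative except score per covered base, where 164 did and region H turned to 0.025 in normal score, against -1.51. Since the 185 were called on these same libraries, a kept sign is largely built in. Between Tomato+ and Tomato-, the 21 calls became 0 per covered base, 166 with log2 scores, 60 when ranked over regions of at least 2 libraries, 136 with the trend, and 0 to 3 without 1 library. Within non-Tfh, the 2 Tomato calls became 0 with the largest island, 0 per covered base, 229 with log2 scores (115 higher, 114 lower), 68 over regions of at least 2 libraries (51 higher, 17 lower), 75 with the trend (59 higher, 16 lower) and 0 without any 1 library. Within Tfh, leaving out 1 library gave 0 to 1. For Tfh against non-Tfh within Tomato+ cells, 0 calls became 9 with the largest island, 476 with log2 scores, 1 ranked over members alone, 82 over regions of at least 2 libraries and 112 with the trend. Within Tomato- cells they became 14 with log2 scores, 34 with the trend and 0 to 1 without 1 library. With the replicate number as a block, calls were 132 between populations, 0 between Tomato+ and Tomato- and 0 for Tomato within non-Tfh. The labels name no batch for the replicate numbers, but the library codes in the titles run in order, replicate 1 before replicate 2. Beyond this fit and the correlations of same-numbered libraries given above, whether the number marks a batch was not tested. Regions A to J stayed called without any single Tfh library and were lost without most single non-Tfh libraries, with A kept in 5 of 8 such fits and B to J in 4. K and L were kept in 1 and M to Q in 0. Width calls were 0 in every alternative run, including a rank of width chosen after seeing the data. A limit of 4000 bp left 5502 members, and the other definitions of a member, or leaving out 1 library, gave between 7682 and 10629. Without 1 library the difference in median width, Tfh minus non-Tfh, was 183 to 383 bp, and Tomato+ minus Tomato- -100.0 to 167 bp. Depth is unknown, which limits what an absent call can mean.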

Other observations

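Regions below 8000 bp that had an island in all libraries but 1 numbered 1554. The missing library was most often Tfh Tomato+ replicate 1, in 514 regions (33.1%), then non-Tfh Tomato- replicate 2, in 317 (20.4%), and Tfh Tomato+ replicate 2, in 228 (14.7%). These were the libraries with the fewest islands, 14084, 14980 and 15374. The other 5 libraries were missing in 66 to 118 regions each. Among the 3 Y members, in chrY:1788001-1793800 and in chrY:2779601-2786400 the lowest score, 324 and 1449, was in Tfh Tomato+ replicate 1 and the highest, 1003 and 4687, in Tfh Tomato- replicate 2.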
